A study of Mus musculus with 6 samples.

Results

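The receptors, kinases and transcription factors that carry interferon signals into the nucleus were examined in mouse piriform cortex, which receives the output of the olfactory bulb. The 9 genes were taken by name from a count table of 53715 genes: the receptor subunits Ifnar1, Ifnar2, Ifngr1 and Ifngr2, the kinases Jak1, Jak2 and Tyk2, and the transcription factors Stat2 and Stat3. All 9 had enough reads to be tested, among 16721 genes tested in all. Poly(A) RNA was sequenced from 6 libraries. All came from Gad2-Cre mice, which make Cre recombinase in cells that use the Gad2 promoter, a property of GABAergic neurons. The Caspase3 group (3 libraries) had received AAV-DIO-Caspase3, a virus whose caspase 3, an executioner protease of apoptosis, is switched on by Cre. The GFP group (3 libraries) had received AAV-DIO-GFP, whose fluorescent protein is switched on the same way. Injection was stereotactic and on 1 side in both groups, and the labels give no age, no interval after injection and no statement that the libraries of a group are separate animals. The p-values rest on the spread among the 6 libraries and may thus reflect technical variation in part.

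Type I interferons bind a receptor built from Ifnar1 and Ifnar2, which are held by the kinases Tyk2 and Jak1. Interferon gamma binds Ifngr1 and Ifngr2, held by Jak1 and Jak2. The kinases phosphorylate STAT proteins, which then enter the nucleus. Stat2 acts in the complex ISGF3 with its partner Irf9 and is itself interferon-inducible, whereas Stat3 mainly serves cytokines of the interleukin 6 family. In the brain, neurons, astrocytes, microglia and endothelial cells all express interferon receptors.

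Of the 9 genes, Stat2 rose in the Caspase3 group and the other 8 did not pass the test. Stat2 was 2.63-fold higher. Ifngr1, Ifnar2 and Stat3 stood 1.34-fold to 1.39-fold higher in the Caspase3 group without passing, and Ifnar1, Ifngr2, Jak1, Jak2 and Tyk2 lay between 0.973-fold and 1.23-fold. Across all genes tested, 1.64% passed, 1.53% as higher and 0.114% as lower (Benjamini-Hochberg adjusted p under 0.05, edgeR's quasi-likelihood test). No member was lower, at an unadjusted p under 0.05 or with DESeq2 or limma-voom. With edgeR 4 members were higher at an unadjusted p under 0.05, while DESeq2 and limma-voom each called 1 higher. Of the 16721 genes tested, edgeR gave 1123 higher and 654 lower at an unadjusted p under 0.05. Among the same genes DESeq2 called 387 higher and 96 lower, and limma-voom 216 and 14.

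Promoter sequence is shown for Stat2, the member that passed, and for Ifnar2, which has a match to another motif of the pathway. All 9 genes were found in a RefSeq promoter table (GRCm38.p6), with 250 bases before and 50 after each transcript start. They were searched on both strands for the core of the interferon-stimulated response element, GAAA followed by 2 free bases and a further GAAA, which ISGF3 and interferon regulatory factors bind, and for TTCNNNGAA, the gamma-activated site that STAT dimers bind. The Stat2 promoter held the first motif, on the minus strand, from 222 to 213 bases before the start (chr10:128270276-128270285). The first motif was found in none of the other 8 promoters and in 3.44% of the 32851 promoters in the table. The second motif is reported here for 8 of the 9 promoters, of which it was found in that of Ifnar2, from 214 to 206 bases before the start (chr16:91372569-91372577), and in 8.30% of all promoters. Neither motif was found in Ifngr1, Ifngr2, Jak1, Jak2, Tyk2 or Stat3. A match is a description of the letters in this window and not a site of binding. The sequences follow 5′ to 3′ on the plus strand, which is the strand of both genes, with the match in capitals: the 250 bases before the start for Stat2 (chr10:128270248-128270497), and the surroundings of the match for Ifnar2 (chr16:91372539-91372607).
Stat2: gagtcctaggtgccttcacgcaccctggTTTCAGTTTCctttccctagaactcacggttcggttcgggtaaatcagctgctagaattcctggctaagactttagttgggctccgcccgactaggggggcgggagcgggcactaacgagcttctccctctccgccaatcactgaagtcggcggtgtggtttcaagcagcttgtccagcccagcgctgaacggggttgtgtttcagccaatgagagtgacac
Ifnar2: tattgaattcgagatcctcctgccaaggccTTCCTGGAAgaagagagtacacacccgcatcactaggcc

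Depth ran from 20424581 to 24227361 counted reads for Caspase3 and from 22101015 to 26268377 for GFP. Levels of a gene are given as CPM, read counts relative to library size after scaling with edgeR's TMM factors. The targeted gene, Gad2, stood at 26.7 to 38.5 CPM in the Caspase3 libraries and 92.4 to 118.0 CPM in the GFP libraries (log2 fold change -1.60 ± 0.15 SE, edgeR adjusted p = 0.00371). Markers of cortical excitatory neurons were present in all libraries, with a summed level of 3745 to 4141 CPM in the Caspase3 group and 3621 to 4239 CPM in the GFP group. GFP library 3 stood apart, with 1346 CPM summed over 10 striatal projection neuron markers against 251 to 384 CPM in the other libraries (edgeR called none of the 10, with 7 lower at an unadjusted p under 0.05 and none called by DESeq2 or limma-voom). Without that library 131 genes passed as higher, against 255 over all libraries. Member values that change direction without it are given with the gene.

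Ifnar1 (ENSMUSG00000022967, GRCm38 chromosome 16, 91485238 to 91507441) encodes the type I interferon receptor chain that binds Tyk2. Its level was 59.8, 53.0 and 56.3 CPM in Caspase3 libraries 1, 2 and 3 and 60.1, 50.8 and 50.2 CPM in GFP libraries 1, 2 and 3. The highest and the lowest value were both in GFP libraries, and the groups overlapped. Its log2 fold change was 0.07 ± 0.10 (SE), with a 95% interval of -0.16 to 0.30 (edgeR adjusted p = 0.855). Ifnar2 (ENSMUSG00000022971, chromosome 16, 91372783 to 91405589) encodes the chain that binds ligand with high affinity and carries Jak1. It stood at 15.02, 10.6 and 12.03 CPM in the Caspase3 libraries and at 8.43, 10.2 and 8.87 CPM in the GFP libraries. The groups did not overlap, but Caspase3 library 2 lay close above GFP library 2. Ifnar2 had a log2 fold change of 0.45 ± 0.16 (95% interval 0.08 to 0.82) and did not pass (edgeR adjusted p = 0.338). Membrane-bound and soluble forms of Ifnar2 are counted together in a table of genes.

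Ifngr1 (ENSMUSG00000020009, chromosome 10, 19591949 to 19610229), the chain that binds interferon gamma, was at 31.9, 27.97 and 27.0 CPM in the Caspase3 libraries. In the GFP libraries it was at 24.4, 18.1 and 19.9 CPM. Every Caspase3 library lay above every GFP library. The log2 fold change of 0.48 ± 0.13 (95% interval 0.17 to 0.78) did not pass over all genes (edgeR adjusted p = 0.182). Ifngr2 (ENSMUSG00000022965, chromosome 16, 91547072 to 91565169), the signalling chain of the same receptor, had 40.3, 34.6 and 34.4 CPM in the Caspase3 libraries against 33.5, 43.0 and 29.1 CPM in the GFP libraries. GFP library 2 held the highest value and GFP library 3 the lowest. For Ifngr2 the log2 fold change was 0.05 ± 0.15 (95% interval -0.29 to 0.38, edgeR adjusted p = 0.938), and it fell below 0 without GFP library 3 (-0.08) or without Caspase3 library 1 (-0.03).

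Ifnar2, Ifnar1 and Ifngr2 lie in this order on the plus strand of chromosome 16, between positions 91372783 and 91565169, with Il10rb between the first pair. Il10rb encodes the receptor chain shared by interleukin 10 and the lambda interferons. It stood at 8.58, 5.003 and 7.02 CPM in the Caspase3 libraries and at 5.64, 3.48 and 3.25 CPM in the GFP libraries, with a log2 fold change of 0.74 ± 0.27 that did not pass (edgeR adjusted p = 0.341). None of the 4 receptor genes of the cluster passed, and their log2 fold changes ran from 0.05 to 0.74. The predicted coding gene Gm21970 is annotated across the 3′ part of Ifnar2 and part of Il10rb and did not pass the filter on low counts.

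**Figure D1:**
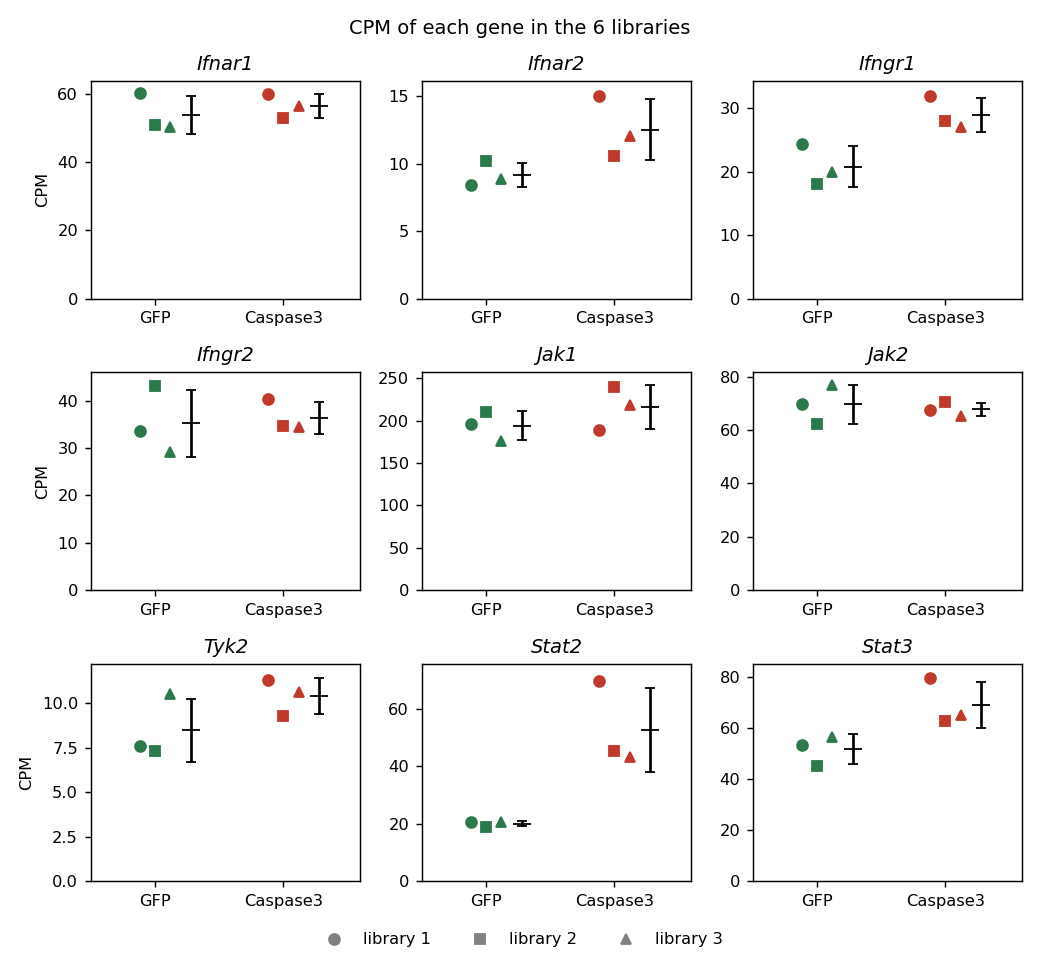
CPM of the 9 genes (vertical axes from 0, a separate scale for each gene) in the 3 GFP libraries (green) and the 3 Caspase3 libraries (red). Symbols mark the library number, and the black bar gives the mean and SD. Stat2 shows the widest gap, from 19.0 to 20.6 CPM in GFP libraries to 43.3 to 69.7 CPM in Caspase3 libraries; Ifnar2, Ifngr1 and Stat3 also do not overlap, with smaller gaps.

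Jak1 (ENSMUSG00000028530, chromosome 4, 101152367 to 101265282) is the kinase used by both interferon receptors and by the interleukin 6 family. Its level was 189.2, 240.2 and 218.4 CPM in the Caspase3 libraries and 196.2, 210.4 and 175.7 CPM in the GFP libraries. The groups overlapped, and Caspase3 library 1 lay below GFP libraries 1 and 2. Jak1 had a log2 fold change of 0.15 ± 0.12 (95% interval -0.11 to 0.42, edgeR adjusted p = 0.709). Jak2 (ENSMUSG00000024789, chromosome 19, 29251828 to 29313080), the kinase bound to Ifngr2, was at 67.5, 70.4 and 65.4 CPM against 69.7, 62.3 and 77.0 CPM in the GFP libraries. All 3 Caspase3 values lay within the range of the GFP values. Its log2 fold change was -0.04 ± 0.10 (95% interval -0.26 to 0.18, edgeR adjusted p = 0.922), and 0.03 without GFP library 3. Tyk2 (ENSMUSG00000032175, chromosome 9, 21104068 to 21131243), the kinase bound to Ifnar1, was at 11.3, 9.28 and 10.6 CPM against 7.60, 7.33 and 10.5 CPM. GFP library 3 lay among the Caspase3 libraries and the other GFP libraries below them. The log2 fold change was 0.29 ± 0.17 (95% interval -0.10 to 0.68, edgeR adjusted p = 0.606), and 0.47 without GFP library 3 (adjusted p = 0.343). The intervals of all 3 kinases ended below 0.99, the lower bound of the interval for Stat2.

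Stat2 (ENSMUSG00000040033, chromosome 10, 128270559 to 128292849) was at 69.7, 45.3 and 43.3 CPM in Caspase3 libraries 1, 2 and 3. In the GFP libraries it was at 20.6, 19.0 and 20.6 CPM. The GFP values were nearly the same, whereas Caspase3 library 1 stood well above the other Caspase3 libraries, and the lowest Caspase3 value was above the highest GFP value. The means were 52.8 ± 14.7 CPM (SD, n = 3) and 20.1 ± 0.919 CPM (SD, n = 3). On the log2 scale Stat2 rose by 1.39 ± 0.18 (95% interval 0.99 to 1.79; edgeR adjusted p = 0.00621). Without Caspase3 library 1 the log2 fold change was 1.15 and the gene passed (adjusted p = 0.00129). Without GFP library 2 the log2 fold change was 1.36 and Stat2 missed the threshold (adjusted p = 0.0585), in a fit where 15 genes in all passed as higher against 255 over all libraries.

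Stat3 (ENSMUSG00000004040, chromosome 11, 100885098 to 100939540) was at 79.6, 62.8 and 65.4 CPM in the Caspase3 libraries and at 53.4, 45.1 and 56.7 CPM in the GFP libraries. The groups did not overlap, and Caspase3 library 1 was again the highest. The log2 fold change of 0.42 ± 0.12 (95% interval 0.14 to 0.70) did not pass over all genes (edgeR adjusted p = 0.208). Stat3 shares 72 exon bases with Stat5a, which lies on the other strand. Whether reads were counted by strand is not stated in the labels, so some reads could belong to either gene.

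The difference between Stat2 and the other members is described within each library. Stat2 was taken because it passed on these same counts, and all 8 ratios share it, so their separation is no further support. The log2 ratio of Stat2 to each of the other 8 genes was higher in every Caspase3 library than in every GFP library. The mean ratio differed by 0.88 (against Ifngr1) to 1.40 (against Jak2) on the log2 scale. The exact two-sided permutation test gave p = 0.1 in each of the 8 comparisons, the smallest p that 3 against 3 libraries allow, and 0.1 after Benjamini-Hochberg adjustment. The design thus cannot place these differences under 0.05 by that test. Groups that did not overlap, with the Caspase3 group higher, were found for 4 of the 9 members (Stat2, Ifngr1, Ifnar2 and Stat3) and for 8.96% of all genes tested. Non-overlap in the other direction was found for none of the members and for 6.29% of all genes. The median log2 fold change of the 9 members was 0.29 and that of all genes tested -0.0011.

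**Figure D2:**
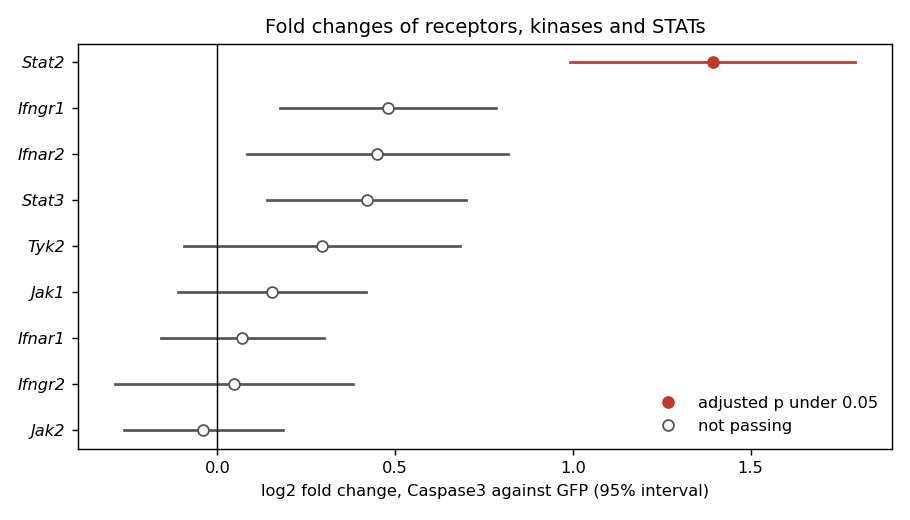
Log2 fold change of each of the 9 genes, Caspase3 against GFP (horizontal axis), with its 95% interval from the edgeR fit. Stat2, filled, passes at 1.39; the intervals of Ifngr1, Ifnar2 and Stat3 lie above 0 without passing over all genes, and those of the other 5 genes include 0.

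Levels of different genes were compared per length, with the deposited FPKM, which divides fragments by gene length and library depth. In the GFP group the order was Jak1 (26.8 ± 2.55 FPKM, SD, n = 3), Jak2 (13.8 ± 1.39), Ifngr2 (10.6 ± 2.21), Ifnar1 (9.13 ± 0.929), Ifngr1 (7.29 ± 1.12), Stat3 (5.43 ± 0.596), Stat2 (3.38 ± 0.137), Ifnar2 (2.75 ± 0.286) and Tyk2 (1.23 ± 0.25). The values of Jak2 and Ifngr2, of Ifngr2 and Ifnar1, and of Ifnar1 and Ifngr1 overlapped between libraries, while the other neighbours in this order did not. In the Caspase3 group Stat2, at 8.81 ± 2.38 FPKM, stood above Stat3 (7.19 ± 0.885) and next to Ifnar1 (9.49 ± 0.501) and Ifngr1 (10.1 ± 0.847). Its libraries overlapped those of all 3 genes and of Ifngr2 (10.9 ± 0.934). Jak1 (29.6 ± 3.73) and Jak2 (13.3 ± 0.55) remained the highest, and Ifnar2 (3.72 ± 0.647) and Tyk2 (1.498 ± 0.136) the lowest. The FPKM ratio of Stat2 to Stat3 was 1.41, 1.16 and 1.07 in the Caspase3 libraries and 0.619, 0.677 and 0.585 in the GFP libraries. Stat3 thus had the higher level per length in every GFP library and Stat2 in every Caspase3 library.

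The RNAs for the chains of 1 receptor were not equally abundant, and protein was not measured. The FPKM ratio of Ifnar1 to Ifnar2 was 2.26, 2.85 and 2.65 in the Caspase3 libraries and 4.03, 2.83 and 3.20 in the GFP libraries. Ifnar1 had the more abundant RNA per length in all 6 libraries, and the groups overlapped in the ratio. The ratio of Ifngr2 to Ifngr1 was 1.08, 1.06 and 1.09 in the Caspase3 libraries and 1.18, 2.04 and 1.26 in the GFP libraries. The RNAs for the interferon gamma receptor chains were thus near 1 to 1 in the Caspase3 libraries. The ratio was higher in each GFP library, most of all in GFP library 2. Jak1 exceeded Tyk2 by 15.9-fold to 24.6-fold in the Caspase3 libraries and by 15.9-fold to 27.3-fold in the GFP libraries.

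**Figure D3:**
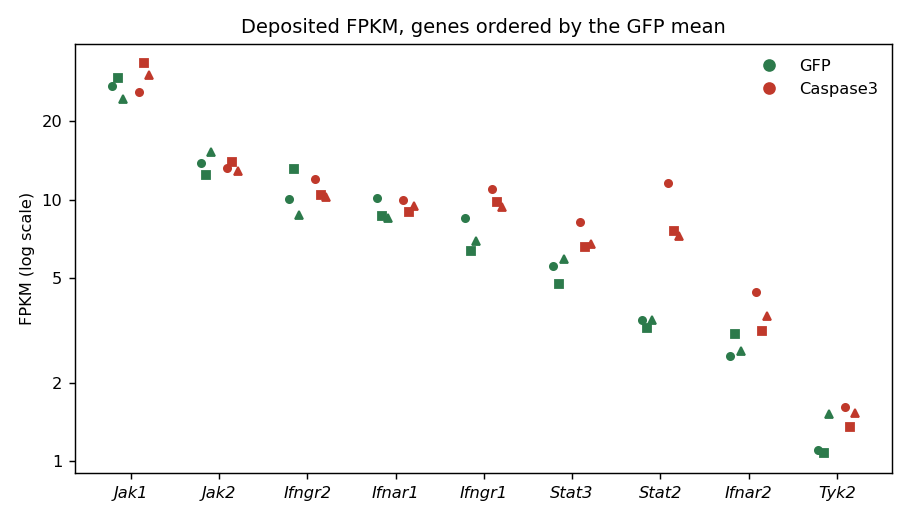
Deposited FPKM (log axis) of the 9 genes in each library, ordered from left to right by the mean of the GFP group. Symbols mark library number and colours the group. Jak1 is highest and Tyk2 lowest in both groups, while Stat2 moves from 3.22 to 3.47 FPKM in GFP libraries to 7.25 to 11.5 FPKM in Caspase3 libraries.

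The genes whose library profile was most like that of Stat2 were sought among the 13238 other genes that averaged 1 CPM or more. Likeness was the root mean square difference over the 6 libraries between log2 CPM values centred on each gene's mean. The closest were Spi1 (0.065), Irf8 (0.066) and C1qa (0.077). Their log2 fold changes were 1.48, 1.42 and 1.46, so a similar change between the groups is part of this likeness. Spi1 and Irf8 encode transcription factors of myeloid cells, and C1qa a complement subunit made by microglia. Irf8 is also on the list of interferon gamma targets read below. Among the members, the closest to Stat2 was Ifngr1, at 0.471. C1qa stood at 77.8, 49.4 and 51.9 CPM in the Caspase3 libraries and at 22.8, 19.0 and 23.2 CPM in the GFP libraries. As with Stat2, Caspase3 library 1 was far above the rest.

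**Figure D4:**
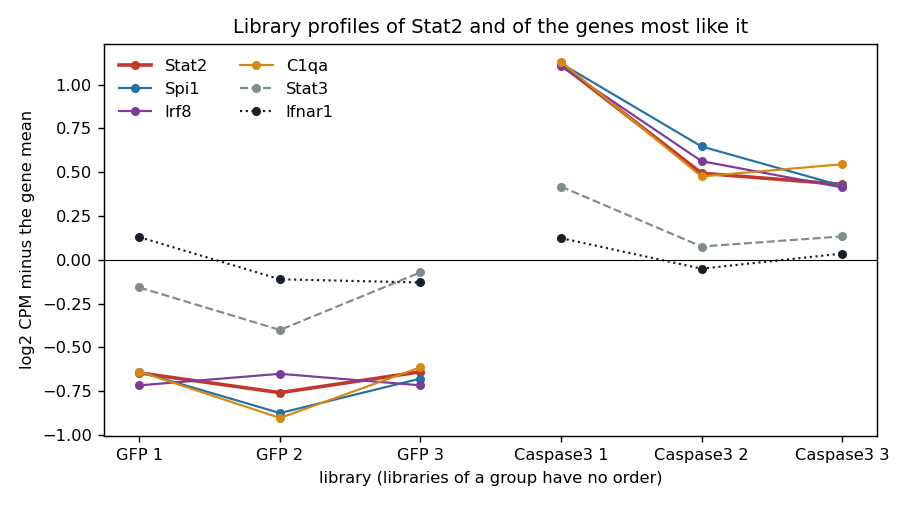
Log2 CPM minus the gene's mean (vertical axis) in each library for Stat2, the 3 genes closest to it (Spi1, Irf8 and C1qa) and, for contrast, Stat3 and Ifnar1. Lines join libraries of a group, which have no order. Stat2 and its 3 closest genes nearly coincide, with the highest point in Caspase3 library 1, whereas Stat3 and Ifnar1 vary much less.

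Markers of microglia, C1qa among them, were higher in part, with log2 fold changes from 0.17 to 1.47. Of 10 microglia markers, 6 rose and none fell (edgeR adjusted p under 0.05; 8 higher with DESeq2 and 5 with limma-voom; none lower at an unadjusted p under 0.05 or with DESeq2 or limma-voom), with a median log2 fold change of 0.78. Their summed level was 512 to 691 CPM in the Caspase3 libraries and 323 to 381 CPM in the GFP libraries, and no marker was at 0. Set against that sum, Stat2 amounted to 10.1%, 8.51% and 8.47% in the Caspase3 libraries and to 5.40%, 5.88% and 6.28% in the GFP libraries. Stat2 was thus higher in the Caspase3 group also against this sum. The sum mixes markers whose log2 fold changes ran from 0.17 to 1.47, with a median of 0.78. C1qa alone rose by 1.46, against 1.39 for Stat2, so the result holds for the sum and not for each marker. Ifngr1 amounted to 5.05 ± 0.372% (SD, n = 3) against 6.02 ± 0.401%, and Stat3 to 12.03 ± 0.656% against 15.1 ± 1.88%, so that both were lower in every Caspase3 library than in every GFP library on this scale. Set against 10 astrocyte markers they were higher in every Caspase3 library, Ifngr1 at 0.292 ± 0.0265% against 0.203 ± 0.00734% and Stat3 at 0.699 ± 0.0889% against 0.510 ± 0.0625%. Their direction thus differed between these marker sums, whereas Stat2 was higher against both (astrocyte markers, 0.526 ± 0.0977% against 0.198 ± 0.0181%). Ifnar2 amounted to 2.17 ± 0.184% against 2.69 ± 0.467% of the microglia marker sum. Of the astrocyte marker sum it made up 0.126 ± 0.0223% against 0.0912 ± 0.0186%. The groups overlapped on both scales. In tissue RNA, more cells of a type and more RNA per cell cannot be told apart, and the part of microglia in the levels of the 9 genes was not tested.

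Other cell types are given for the same libraries. Of 10 astrocyte markers, 1 rose (Gfap), and the summed level was 8421 to 11085 CPM in the Caspase3 libraries and 9248 to 11586 CPM in the GFP libraries. None of 10 endothelial and pericyte markers passed (edgeR; 1 lower at an unadjusted p under 0.05, none with DESeq2 or limma-voom; 532 to 613 against 536 to 700.2 CPM). None of 10 oligodendrocyte markers passed either (1 higher at an unadjusted p under 0.05, none with DESeq2 or limma-voom; 8932 to 12731 against 7758 to 9124 CPM). Of 10 T and NK cell markers, 4 were tested with edgeR, of which 3 rose and 1 had a negative log2 fold change (-0.86) without passing. Limma-voom called 2 higher, and DESeq2, counted over all 10, called 4 higher (4.18 to 8.86 against 0.99 to 4.66 CPM). Of 10 monocyte, macrophage and neutrophil markers, 5 were tested, with a median log2 fold change of 1.07 and none negative. Of these 1 rose with edgeR and 2 with limma-voom, and 4 were higher at an unadjusted p under 0.05. Counted over all 10, DESeq2 called 4 higher (52.3 to 109.5 against 27.2 to 44.7 CPM, with Ly6g at 0 in all libraries). Of 12 GABAergic markers, Gad2 fell in edgeR's test, while DESeq2 called 5 lower and limma-voom 1 (420.0 to 629 against 720.0 to 1042 CPM). All 12 had a negative log2 fold change, with a median of -1.05, 8 were lower at an unadjusted p under 0.05 and 9 did not overlap between the groups. Their part in the levels of the 9 genes was not tested.

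The ligands of these receptors were almost without reads. The 12 interferon genes listed (Ifna1, Ifna2, Ifna4, Ifna5, Ifnab, Ifnb1, Ifng, Ifne, Ifnk, Ifnz, Ifnl2 and Ifnl3) had 3 reads in all, 1 each for Ifnb1 in Caspase3 library 1, Ifnk in Caspase3 library 2 and Ifna1 in GFP library 1. The other 9, Ifng among them, were at 0 in all 6 libraries, which allows a level of up to 0.0217 CPM over the 6 libraries (3 counts of 138150085, counting error only). Any difference between groups was not detectable at this depth. Of 10 further ligands of the interleukin 6 and 10 families, 4 were tested and none passed (edgeR, DESeq2 or limma-voom; none at an unadjusted p under 0.05). The rest were too low to be tested with edgeR. Il6 had 11 reads and Osm 16 over the Caspase3 libraries, against 0 and 5 over the GFP libraries. Il27 had 2 against 0, Cntf 4 against 15 and Il11 12 against 14, and Il10 was at 0.

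Receptors of related cytokines that use the same kinases showed a partly similar picture. Of 26 listed, 23 were tested, 3 rose and none fell (12 higher and 0 lower at an unadjusted p under 0.05; DESeq2 8 higher, limma-voom 4), with a median log2 fold change of 0.67. Csf3r, the receptor of granulocyte colony-stimulating factor, was at 8.85 ± 1.15 against 3.30 ± 0.865 CPM and rose 2.69-fold (edgeR adjusted p = 0.0136). Osmr, the oncostatin M receptor, rose 2.13-fold and Il10ra, the ligand-binding chain for interleukin 10, rose 2.19-fold (edgeR adjusted p = 0.0148 and 0.0242). Il6st, the gp130 chain through which the interleukin 6 family reaches Jak1 and Stat3, was at 200.6, 159.4 and 175.6 CPM against 159.1, 122.4 and 142.4 CPM and did not pass (log2 fold change 0.34 ± 0.13, edgeR adjusted p = 0.36). None of the receptors passed without GFP library 2. Csf3r also missed the threshold without Caspase3 library 3, and Il10ra without any 1 GFP library (adjusted p up to 0.129).

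Of 7 listed genes that are further kinases or STATs or belong to ISGF3, 2 rose and none fell (4 higher and 0 lower at an unadjusted p under 0.05; DESeq2 and limma-voom 2 higher each, none lower). Irf9, the DNA-binding partner of Stat2 in ISGF3, stood at 55.3, 28.2 and 26.7 CPM in the Caspase3 libraries and at 8.76, 6.26 and 7.64 CPM in the GFP libraries. Like Stat2, it was highest in Caspase3 library 1 and its groups did not overlap. Irf9 rose by 2.28 ± 0.28 on the log2 scale (edgeR adjusted p = 0.00569, and 0.0572 without GFP library 2). Irf9 shares 123 exon bases with Rnf31, so some of its reads could belong to that gene. Jak3, a kinase of lymphoid and myeloid cells, was at 5.17 ± 1.15 against 2.91 ± 0.40 CPM without passing (log2 fold change 0.83 ± 0.22, edgeR adjusted p = 0.144). Stat4, Stat5a, Stat5b and Stat6, which serve other cytokines, had log2 fold changes of 0.69, 0.61, 0.05 and 0.40 and adjusted p of 0.385 to 0.914 (edgeR).

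Genes listed as targets of ISGF3, of interferon gamma and of Stat3 were also read. The lists do not tell the STATs apart, and which of them acts on a gene was not tested. All 20 listed ISGF3 targets rose in edgeR's test and with DESeq2 (18 with limma-voom and 14 with robust edgeR), with a median log2 fold change of 4.004, among them Ifit1, Mx1, Mx2 and Oas2, which act against viral RNA or particles and rose 21.0-fold, 46.7-fold, 14.3-fold and 14.9-fold. Of 17 tested targets of interferon gamma, 16 rose with edgeR and DESeq2 and 12 with limma-voom (median 2.38), led by the chemokine Cxcl10 and the GTPases Iigp1, Gbp3 and Gbp2 (log2 fold changes 6.86, 4.45, 3.03 and 2.87). Of 18 tested targets of Stat3, 5 rose and 1 fell (median 0.73). At an unadjusted p under 0.05, 9 were higher and 2 lower, and DESeq2 called 8 higher and 2 lower, limma-voom 4 and 1. With no filter on low counts 8 were called higher and 2 lower, and 8 higher and 1 lower with the sample number as a block. The rises were Icam1, Gfap, Serpina3n, Osmr and Vim and the fall was Fos, an immediate early gene of neuronal activity. Vim (edgeR adjusted p = 0.048) missed the threshold in each of the 6 fits with 1 library left out (adjusted p up to 0.158). Without GFP library 2, the counts of rises on the 3 lists were 5, 1 and 0, with no fall, and without GFP library 3 they were 19, 12 and 4. Some of these genes stand on more than 1 list. They are listed as targets from general knowledge, but with earlier results of these data known. The counts on the 3 lists are thus a description and no independent support. Binding was not measured, and Cxcl10 and Icam1 share exon bases with other tested genes.

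Negative regulators were mostly level between the groups. Of 20 listed, 19 were tested, 3 rose and none fell (4 higher and 0 lower at an unadjusted p under 0.05; DESeq2 3 higher, limma-voom 2), with a median log2 fold change of 0.03. Usp18, which displaces Jak1 from Ifnar2, rose 19.9-fold, from 1.40, 0.871 and 0.878 CPM in the GFP libraries to 32.7, 20.1 and 9.86 CPM in the Caspase3 libraries (log2 fold change 4.31 ± 0.45, edgeR adjusted p = 0.00405). Ptprc (CD45) and Ptpn6 (SHP-1), phosphatases of blood-derived cells and microglia, rose 2.87-fold and 2.53-fold (edgeR adjusted p = 0.0079 and 0.0427). Ptpn6 kept its call in 1 of the 6 fits with 1 library left out, that without Caspase3 library 2. Without GFP library 2 none of the 3 passed. Socs3, the feedback inhibitor induced by Stat3, was at 2.59 ± 0.515 against 1.97 ± 0.346 CPM (edgeR adjusted p = 0.634). Socs1, the feedback inhibitor of interferon receptors, had 21 reads over the Caspase3 libraries and 6 over the GFP libraries and was too low to be tested.

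The log2 fold changes of the members were recomputed under 15 other settings. Stat2 ranged from 1.14 to 1.5 and passed in 14 of them. Ifngr1 and Stat3 passed in 1, the edgeR fit with no filter on low counts (adjusted p = 0.0333 and 0.0308), and Ifnar2 in none (adjusted p = 0.178 to 0.646). The fit with no filter called 663 genes higher and 250 lower against 255 and 19.

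**Figure D5:**
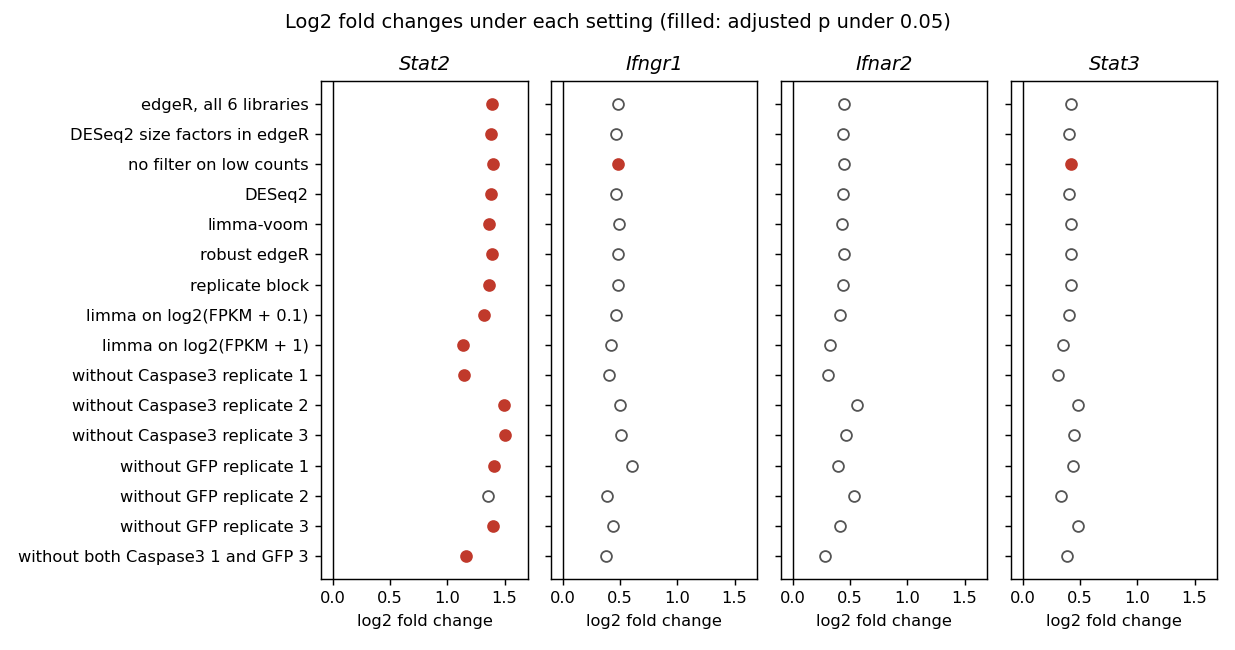
Log2 fold change (horizontal axis) of Stat2, Ifngr1, Ifnar2 and Stat3 under each setting (rows), filled where the adjusted p is under 0.05. Stat2 lies between 1.14 and 1.5 and is open in 1 row, without GFP replicate 2; the other 3 genes stay between 0.28 and 0.61, and Ifngr1 and Stat3 are filled in 1 row each, with no filter on low counts.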

How the data were processed

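Library preparation marked the second strand of cDNA, per the labels' protocols. The submitters' processing notes name HISAT2, featureCounts, DESeq2, mm10 and GRCm38, without roles. Whether reads were counted by strand is not stated in the labels. The authors deposited whole-number read counts per gene, and FPKM values per gene per the file headers. Groups and library numbers came from the sample titles.

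The test on counts was the quasi-likelihood test of edgeR 4.0.16 (R 4.3.3), after filterByExpr and TMM scaling, with group as the only term and Benjamini-Hochberg adjustment over 16721 genes and a threshold of 0.05. The SE is the log2 fold change divided by the square root of F. Alternatives used DESeq2 1.42.0, limma 3.58.1 (voom, and log2 FPKM with pseudocounts of 0.1 and 1), other scaling and filters, the sample number as a block, and libraries left out. For the gene lists, DESeq2 counts run over all listed genes, also those that edgeR's filter left out. The edgeR step was tested on simulated data. Libraries within a group differed beyond counting error (mean chi-square per gene 15.5 to 34.4). Figures were drawn with Matplotlib 3.10.9.

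The members and the lists were chosen with earlier results of these data known. The rule names all 9 members, Gad2, and up to 4 changed genes with the smallest adjusted p from each of 7 pathway lists, or the most abundant tested member where none changed. It adds the 3 genes most like each changed member, leaving out predicted genes. Other genes named were chosen after their values were seen, and some genes under the rule are not reported here. Of the listed symbols, 1 has more than 1 identifier, and the one with most reads was used.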

Additional observations from a re-analysis of the deposited data

How the results depend on the processing

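Over 15 alternative settings for each of the 9 members, 126 of 135 values kept their direction and their side of the threshold. Reversals concerned log2 fold changes near 0: Ifngr2 without Caspase3 replicate 1 (-0.03), without GFP replicate 3 (-0.084) and without both Caspase3 1 and GFP 3 (-0.15), Ifnar1 in the last of these (-0.017), and Jak2 without GFP replicate 3 (0.029) or without both (0.043). With 1 library left out in turn, Ifngr2 ranged from -0.084 to 0.218 and Jak2 from -0.114 to 0.029. The count of members called higher was 1, and 3 with no filter on low counts. With 1 library left out in turn it ranged from 0 to 1, the 0 coming without GFP replicate 2. An adjusted p under 0.1 gave 1 as well. The count of other cytokine receptors called higher was 3, and 11 with no filter, 8 with DESeq2, 7 with robust edgeR and 7 with the replicate block. With 1 library left out in turn it ranged from 0 to 3, that of the further kinases, STATs and ISGF3 genes from 0 to 2 and that of the negative regulators from 0 to 3, each with 0 without GFP replicate 2. No setting called a lower gene among the members, the ligands, the other receptors, the further kinases, STATs and ISGF3 genes or the negative regulators. The cause was not tested. Same-numbered libraries of the groups had correlations of their deviations from the group means of 0.065, 0.178 and 0.027. Pairs with different numbers ran from -0.142 to 0.079. The sample titles number the libraries without saying that they are paired, and whether they are was not settled. With the replicate block Stat2 rose by 1.36 on the log2 scale (edgeR adjusted p = 0.00187), and no member changed its call. Among all genes that block gave 378 called higher and 43 lower, against 255 and 19 without it. Other scalings moved the median of all genes by less than 0.1 on the log2 scale. Depth limits the interferon genes, which had 3 reads in all.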
